A study of Mus musculus with 7 samples.

Results

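The genes described here encode the subunits of the transcription factor NF-kB and proteins of its inhibitor family. They are the 5 subunit genes Nfkb1, Nfkb2, Rel, Rela and Relb, and the 5 inhibitor genes Nfkbia, Nfkbib, Nfkbie, Nfkbid and Nfkbiz. They were taken by gene symbol from a table of 35641 genes, and each of the 10 symbols had 1 row. All 10 also passed the filter on low values, a mean over all libraries of 10 normalized counts or more, which left 14936 genes for testing. The cells, neutrophils by their labels, were taken by flow sorting from lungs of female C57BL6 mice as positive for CD45, CD11b and Ly6G and low for Ly6C. There were 4 libraries from HF mice (HF1 to HF4) and 3 from LF mice (LF6 to LF8), prepared with a SMART-Seq kit, made for small amounts of RNA. The labels spell out neither HF nor LF, and give no genotype, treatment or age, while the title of the study names obesity. Values are normalized counts, that is, reads divided by 1 size factor per library. Libraries held 13943173 to 16599658 reads in HF and 16974428 to 18983351 reads in LF, and the lowest count of any member in any library was 279 reads.

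NF-kB is a dimer of Rel-family proteins that waits in the cytoplasm of resting cells, bound by an inhibitor of the IkB family. Signals from Toll-like receptors or receptors of interleukin-1 and TNF activate the IKK kinases, which mark the inhibitor for destruction, and the freed dimer enters the nucleus and binds kB sites in DNA. Several of its targets are its own inhibitors, so that the response is switched off again, and in neutrophils this circuit drives cytokine production and survival.

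The sort markers have to be read before the members, since the LF libraries went against their sort. Of 10 neutrophil markers 10 were higher in HF, and their summed level was 391258 to 477104 normalized counts in HF libraries, against 8108 to 8680 in the LF-labelled libraries. Ly6g, the gene of the sorted Ly6G protein, averaged 3264 in HF and 2.99 in the LF-labelled libraries, with 0 reads in LF7. Among the HF libraries HF2 had a read in 26409 genes, against 16743 to 20308 in the other HF libraries, at the lowest depth of 13943173 reads. Its Ly6g level was the lowest in HF, at 1301 against 2378 to 4944. HF1 differed in other markers, with the neutrophil marker Ngp at 67282 against 19659 to 26685 in the other HF libraries. Of 10 monocyte and macrophage markers 9 were lower in HF and 0 higher, with sums of 22647 to 29431 in HF and 157559 to 169579 in the LF-labelled libraries. The dendritic cell and MHC class II list had 7 of 8 genes lower and 1 higher, with sums of 15431 to 33084 in HF and 72288 to 88119 in the LF-labelled libraries. All 4 platelet genes were higher in HF, with sums of 644 to 784 in HF1, HF2 and HF4, 3124 in HF3, and 146 to 330 in the LF-labelled libraries. Of 5 endothelial and epithelial genes tested 2 were higher and 1 lower, and of 5 alveolar macrophage genes 1 was higher and 2 lower. Of 7 T, B and NK cell genes 0 were higher or lower. Each difference given here is therefore one between the HF libraries and the LF-labelled libraries, in which cell type and HF or LF status cannot be told apart. Nor can fewer cells of a type be told apart from less RNA per cell.

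Promoter sequences are shown because several members are known targets of NF-kB itself. RefSeq windows of build GRCm38.p6, from 250 bases before a start site to 50 after it, existed for 7 of the 10 members, in 11 windows. They were searched on both strands for the kB consensus, the usual degenerate description of NF-kB sites, and overlapping matches were merged into 1 site. Matches lay in 7 of the 11 windows and in 5 of the 7 members, Nfkb2, Rel, Nfkbia, Nfkbie and Nfkbid, while the windows of Rela and Nfkbib held no match. Of all 32851 windows 8.46% held a match, and of all 27025 genes with a window 9.55% did. The member windows held 56.3% to 75% G and C bases, against a median of 52.7% over all windows. The part of base content in these shares was not tested. The stretches printed here lie before the start site and run 5′ to 3′ on the strand of the gene, with each merged site in capitals.
Nfkb2: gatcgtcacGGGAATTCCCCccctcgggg
Rel: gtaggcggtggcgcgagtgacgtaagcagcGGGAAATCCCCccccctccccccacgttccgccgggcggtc
Nfkbia: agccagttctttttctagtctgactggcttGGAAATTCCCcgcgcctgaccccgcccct
Nfkbid: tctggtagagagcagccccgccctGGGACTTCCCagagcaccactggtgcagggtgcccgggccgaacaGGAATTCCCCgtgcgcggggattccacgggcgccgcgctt

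The Nfkb2 stretch is chr19:46304689-46304717 on the plus strand, kept short because GENCODE M21 also places an untranslated exon of Nfkb2 there. That of Rel is chr11:23771021-23771091 on the minus strand, and that of Nfkbia is chr12:55492648-55492706 on the minus strand. That of Nfkbid is chr7:30422156-30422264 on the plus strand. In Nfkb2, Rel and the first site of Nfkbid the motif reads as a match on both strands, while Nfkbia carries it on the other strand only, 29 to 20 bases before the start (-29 to -20). The members with a site moved in both directions, as described next: Nfkbia and Nfkbid were higher in HF, and Nfkb2, Rel and Nfkbie were lower. Over all tested genes with a window, 27.3% of 1214 with a match and 26.1% of 8962 without one were higher in HF, and 32.5% and 31.9% were lower.

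**Figure D1:**
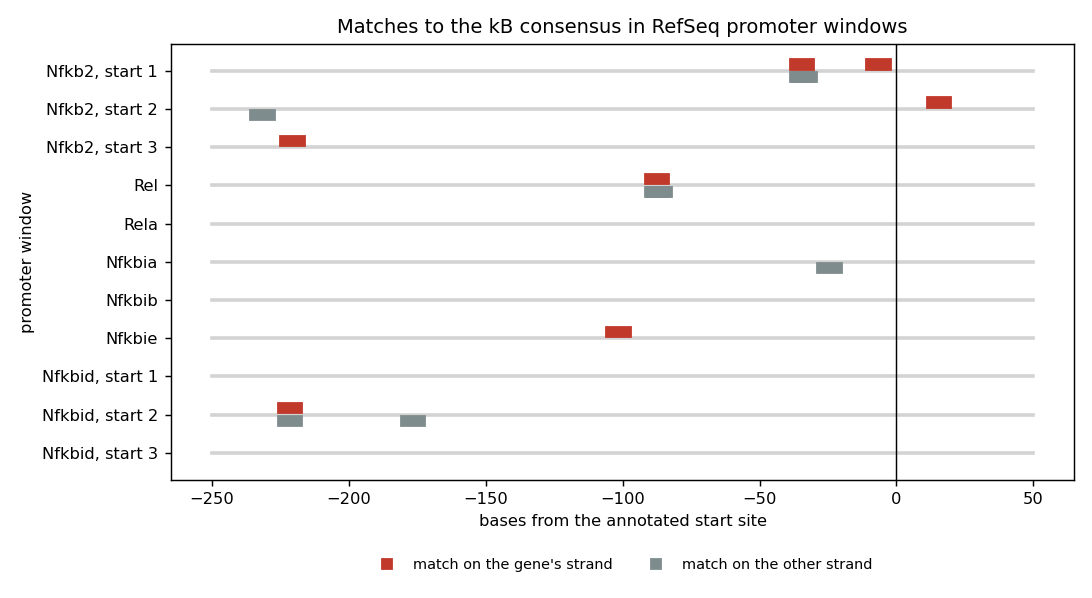
Matches to the kB consensus in the 11 RefSeq promoter windows of 7 members, plotted by bases from the start site (each grey line spans 250 bases before to 50 after). Red boxes are matches on the strand of the gene and grey boxes matches on the other strand, and 4 windows hold none.

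Among the members, 4 were higher in HF, Rela, Nfkbia, Nfkbid and Nfkbiz, and 6 were lower, Nfkb1, Nfkb2, Rel, Relb, Nfkbib and Nfkbie (limma on log2(normalized count + 1), Benjamini-Hochberg adjusted p under 0.05 over all genes tested). By the same test 26.2% of all genes were higher in HF and 28.7% lower, 55% in either direction. The groups did not overlap in 10 of the 10 members, against 62.2% of all genes (28.4% with all HF libraries above and 33.7% with all below). The 4 higher members were 3 of the 5 inhibitors and 1 of the 5 subunits. The median log2 difference was -0.56 for the subunits and 1.73 for the inhibitors, against -0.16 for all genes tested. Without HF2, 4 members were still higher and 5 were lower, with Relb lost. Without LF7 or without LF8 only 3 of the 6 lower members passed, with Rel, Relb and Nfkbie lost each time. With equal library totals the median of all genes moved by -0.51, and 30% of all calls were then higher in HF, against 47.7% with the scaling of the authors.

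**Figure D2:**
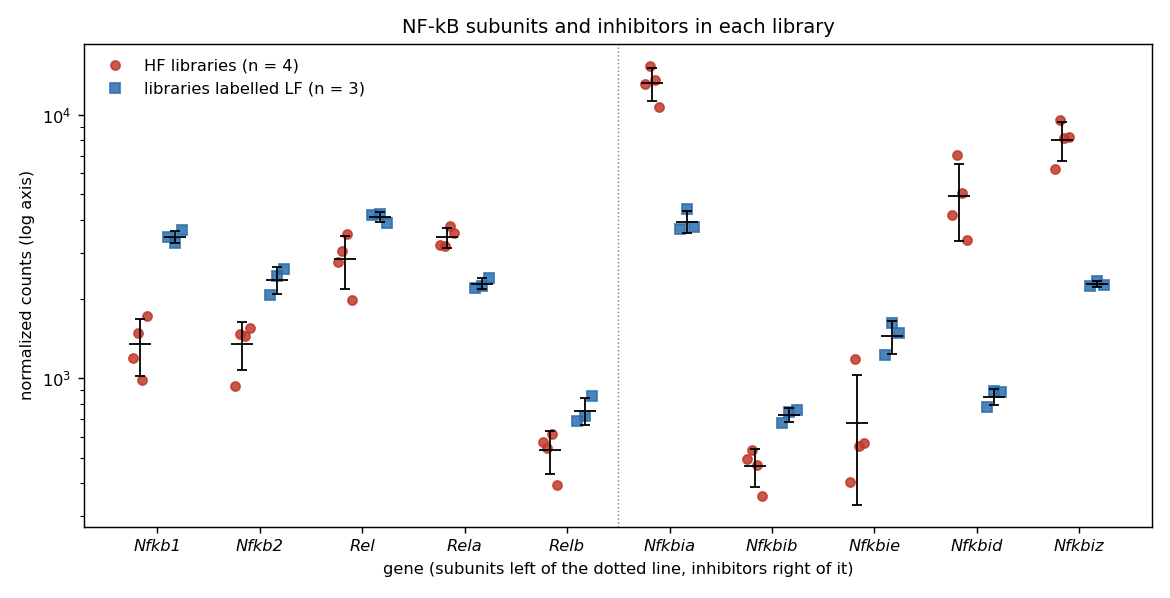
Normalized counts (log axis) of the 10 members in each library, with HF libraries as red circles left of the LF-labelled libraries as blue squares, and black bars for the mean and SD (n = 4 and n = 3). The groups do not overlap in any member, and the gap is widest in Nfkbid.

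Among the subunits, Rela, which carries the main transactivating domain of the canonical dimer, stood at 3209, 3164, 3796 and 3550 normalized counts in HF1 to HF4, against 2205, 2236 and 2409 in LF6 to LF8. Every HF library lay above every LF-labelled library, and the log2 difference was 0.58 ± 0.09 (SE, limma adjusted p = 0.000935). This call depends on the scaling. With equal library totals the difference was 0.064 (limma adjusted p = 0.529), beside a median of -0.67 over all genes. With quantile normalization it was 0.135 (limma adjusted p = 0.186). The call held in edgeR with TMM scaling, at 0.56 (edgeR adjusted p = 0.00109), and in DESeq2, at 0.60 (DESeq2 adjusted p = 1.2e-08). Nfkb1, whose precursor protein is trimmed to the DNA-binding partner of RelA, stood at 1198, 1491, 983 and 1728 in HF1 to HF4, against 3423, 3275 and 3638 in LF6 to LF8. It was 2.55 times higher in the LF-labelled libraries, with a log2 difference of -1.38 ± 0.18 (SE, limma adjusted p = 0.000403), so that the genes of the canonical pair moved in opposite directions under the scaling of the authors.

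Nfkb2 encodes the precursor processed in the noncanonical pathway. It stood at 936, 1470, 1452 and 1552 in HF1 to HF4, against 2064, 2435 and 2599 in LF6 to LF8. HF1 lay apart from the other HF libraries, which lay close together, and the log2 difference was -0.83 ± 0.19 (SE, limma adjusted p = 0.0065). The noncanonical partner of its product, Relb, stood at 574, 546, 618 and 394 in HF1 to HF4, against 690.0, 718 and 856 in LF6 to LF8. HF4 was its lowest library, the highest HF library and the lowest LF-labelled one were near each other, and the log2 difference was -0.51 ± 0.18 (SE, limma adjusted p = 0.0444). With quantile normalization its difference was -0.31 (adjusted p = 0.170). Relb lost its call without HF1, HF2, HF4, LF6, LF7 or LF8, each time with the same direction (limma adjusted p of 0.0513 to 0.161). Nfkb2 can share reads with AC114539.1 and Psd, whose exons overlap its own on the opposite strand by 531 and 299 bases, since the strand setting of the counting is not given. AC114539.1 was not analysed here, and Psd averaged 82.0 in HF and 119 in the LF-labelled libraries.

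Rel encodes c-Rel, a subunit known for its role in blood cells. It stood at 2764, 3046, 3525 and 1985 in HF1 to HF4, against 4177, 4203 and 3893 in LF6 to LF8. HF3 came closest to the LF-labelled libraries and HF4 lay lowest. The log2 difference was -0.56 ± 0.18 (SE, limma adjusted p = 0.0278), and without HF1, LF6, LF7 or LF8 it no longer passed (adjusted p of 0.0546 to 0.0832). With no filter on low values Rel and Relb both missed the threshold (limma adjusted p = 0.0517 and 0.0945). The summed level of the 5 subunit genes was 8682 to 10375 in HF libraries and 12559 to 13395 in the LF-labelled libraries.

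The classical inhibitors, which hold dimers in the cytoplasm, did not move together. Nfkbia, the gene of IkB alpha and the fast feedback inhibitor of the canonical pathway, stood at 13036, 15306, 13594 and 10697 normalized counts in HF1 to HF4, against 3671, 4374 and 3755 in LF6 to LF8. It averaged 3.35 times more in HF than in the LF-labelled libraries, with a log2 difference of 1.73 ± 0.12 (SE, limma adjusted p = 1.2e-05). All 4 HF libraries lay above the highest LF-labelled library by a wide margin, and 14.8% of all tested genes had a larger difference.

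Nfkbib, the gene of IkB beta, an inhibitor that is replaced slowly, stood at 495, 534, 470 and 358 in HF1 to HF4, against 678, 744 and 760 in LF6 to LF8. HF4 was the lowest library of all, and the log2 difference was -0.66 ± 0.17 (SE, limma adjusted p = 0.0107). With quantile normalization it was -0.43 (adjusted p = 0.0539). Nfkbib overlaps exons of Ccer2 and Sirt2 on the opposite strand, by 314 and 42 bases. Ccer2 averaged 0.964 in HF and 0 in the LF-labelled libraries, and Sirt2 averaged 1220.0 in HF and 1118 in the LF-labelled libraries.

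Nfkbie, the gene of IkB epsilon, a slower feedback inhibitor, stood at 403, 1188, 556 and 568 in HF1 to HF4, against 1225, 1622 and 1483 in LF6 to LF8. HF2 stood at about the level of the lowest LF-labelled library, and the other HF libraries were far below it. The log2 difference was -1.20 ± 0.33 (SE, limma adjusted p = 0.0162) with all libraries and -1.51 without HF2 (adjusted p = 0.000751). Without LF7 or LF8 it did not pass (adjusted p = 0.0603 and 0.0523).

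The atypical inhibitors act in the nucleus, where they bind NF-kB on DNA and can raise as well as lower transcription, and both members of this kind were higher in HF. Nfkbid, the gene of IkB NS, stood at 4180.0, 7033, 5067 and 3355 in HF1 to HF4, against 780.0, 892 and 884 in LF6 to LF8. HF2 was the highest and HF4 the lowest of the HF libraries, and each HF library was far above each LF-labelled library. The mean was 5.76 times higher in HF, the log2 difference was 2.47 ± 0.23 (SE, limma adjusted p = 4.9e-05), and 9.23% of all tested genes had a larger one. Nfkbiz, the gene of IkB zeta, needed for a secondary set of inflammatory genes, stood at 6240.0, 9510.2, 8175 and 8202 in HF1 to HF4, against 2238, 2345 and 2262 in LF6 to LF8. The LF-labelled libraries were nearly equal, HF1 was the lowest HF library, and the log2 difference was 1.80 ± 0.13 (SE, limma adjusted p = 1.4e-05). Both kept their direction and their call with equal library totals, at 1.95 for Nfkbid and 1.28 for Nfkbiz, and with quantile normalization, at 2.29 and 1.21.

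**Figure D3:**
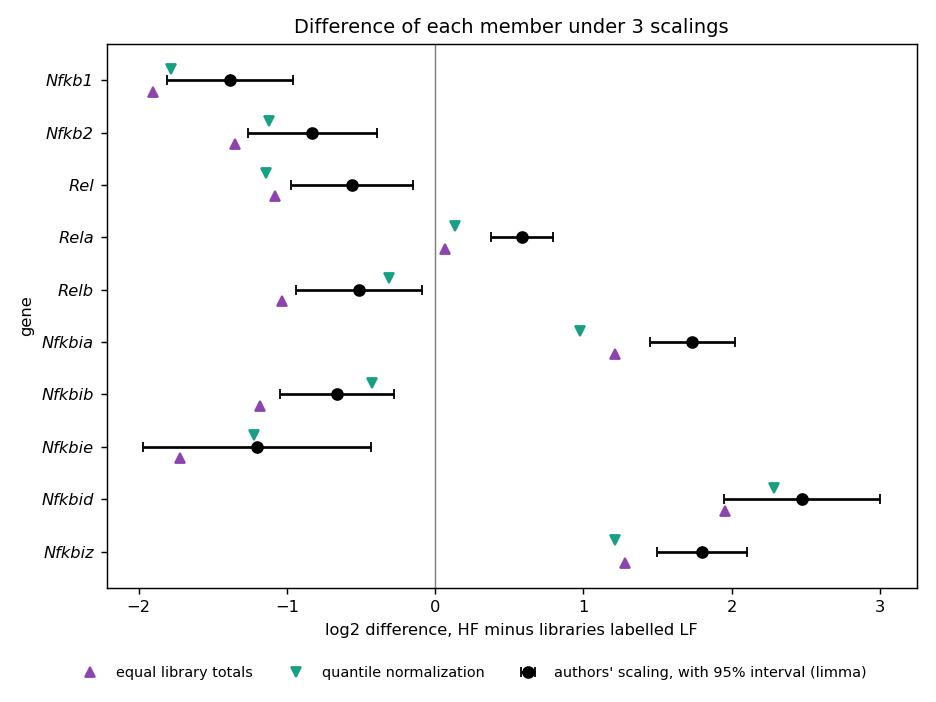
Log2 difference, HF minus LF-labelled libraries, of each member: black points with 95% intervals from limma under the scaling of the authors, purple triangles with equal library totals and green triangles with quantile normalization. No member changes sign, and Rela comes nearest to 0, at 0.064 and 0.135 under the alternative scalings.

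Ratios between members of the same library do not depend on any scaling by 1 factor per library. The summed inhibitor genes over the summed subunit genes came to 2.81, 3.45, 2.69 and 2.52 in HF1 to HF4, against 0.684, 0.775 and 0.683 in LF6 to LF8. The ratio was thus higher in each HF library than in each LF-labelled library. It is no measure of inhibition, since the inhibitor sum includes Nfkbid and Nfkbiz, whose proteins can raise as well as lower transcription. Nfkbid made up 17.7% and Nfkbiz 29.7% of the inhibitor counts in HF, against 9.2% and 24.8% in the LF-labelled libraries. Sums of counts favour long transcripts, so its place above or below 1 does not show which sum had more transcripts. Nfkbia over Rela was 4.06, 4.84, 3.58 and 3.01 in HF1 to HF4, against 1.66, 1.96 and 1.56 in LF6 to LF8, again without overlap.

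Nfkb1 over Rela was lower in HF, at 0.259 to 0.487 in HF libraries and 1.47 to 1.55 in the LF-labelled libraries. Rel over Rela was lower in HF too, at 0.559 to 0.963 in HF and 1.62 to 1.89 in the LF-labelled libraries. These are ratios of counts from transcripts of unlike length, so only their difference between the groups is read. Per kilobase of the longest principal transcript, Rela and Nfkb1 were about level in the LF-labelled libraries, at 841 and 837. With all annotated exons as the length they were not level, at 743 for Rela and 286 for Nfkb1. Of the subunit counts, Rela made up 36.2% ± 2.5 in HF (SD, n = 4) and 17.6% ± 0.31 in the LF-labelled libraries (SD, n = 3), and Nfkb1 made up 14.3% ± 3.9 in HF and 26.6% ± 1.0 in the LF-labelled libraries. Rel, at 29.7% ± 5.5 in HF and 31.7% ± 2.3 in the LF-labelled libraries, and Relb, at 5.62% ± 0.98 in HF and 5.82% ± 0.49 in the LF-labelled libraries, differed by less than the spread between libraries.

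Of the inhibitor counts, Nfkbie made up 2.41% ± 0.82 in HF (SD, n = 4) and 15.6% ± 1.1 in the LF-labelled libraries (SD, n = 3), and Nfkbib made up 1.71% ± 0.22 in HF and 7.89% ± 0.43 in the LF-labelled libraries. Nfkbia was the largest in both groups, at 48.5% ± 3.6 in HF and 42.5% ± 1.4 in the LF-labelled libraries. Nfkbia over Nfkbiz, the fast cytoplasmic inhibitor against a nuclear one, was 1.30 to 2.09 in HF and 1.64 to 1.87 in the LF-labelled libraries, so that these ranges overlapped while both genes were higher in HF. Nfkb2 over Relb overlapped too, at 1.63 to 3.94 in HF and 2.99 to 3.39 in the LF-labelled libraries.

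**Figure D4:**
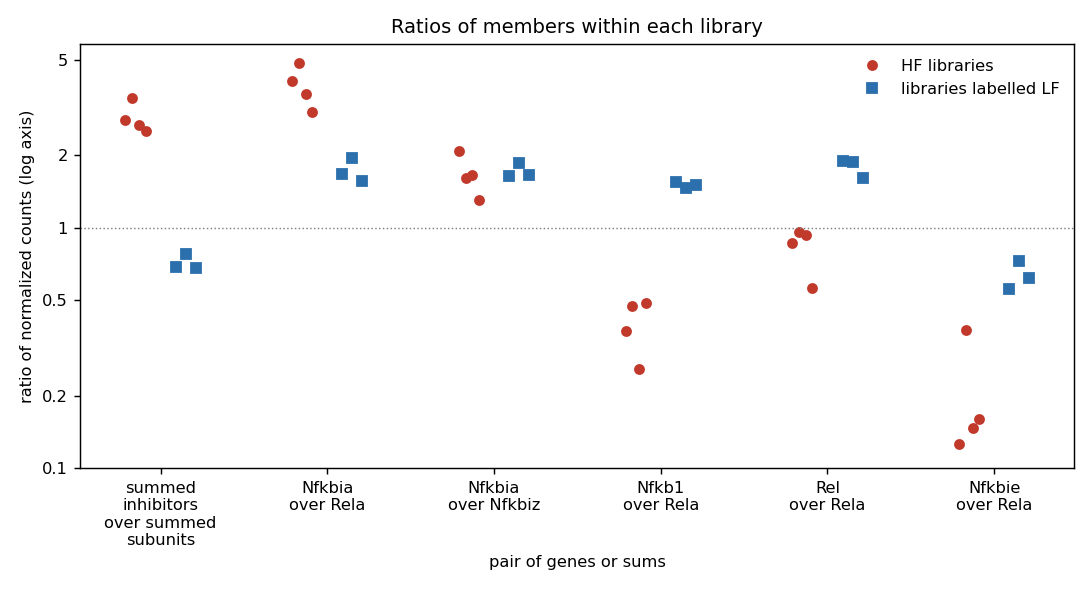
Ratios of normalized counts of members within each library (log axis), HF libraries as red circles left of the LF-labelled libraries as blue squares, with a dotted line at a ratio of 1. The side of this line on which a ratio falls also depends on transcript length. The ratio of summed inhibitors to summed subunits is 2.52 to 3.45 in HF and 0.683 to 0.775 in the LF-labelled libraries, and the ratio of Nfkbia to Nfkbiz overlaps.

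Levels of different genes were compared per kilobase of the longest principal transcript in GENCODE M21, as an approximation, since the annotation used for counting is not given. Nfkbia had the highest level per kilobase in both groups, at 8339 ± 1206 normalized counts per kilobase in HF (SD, n = 4) and 2493 ± 244 in the LF-labelled libraries (SD, n = 3). In HF it was followed by Nfkbid at 2407 ± 775, Nfkbiz at 1952 ± 327 and Rela at 1263 ± 110, of which the ranges of Nfkbid and Nfkbiz overlapped. The remaining 6 members lay between 225 and 431 per kilobase in HF, and each overlapped its neighbour in that order. In the LF-labelled libraries, Rela at 841 ± 40.5, Nfkb1 at 837 ± 44.3 and Nfkb2 at 753 ± 87.3 came next, with ranges that overlapped from each to the next. Nfkbid stood second in HF and eighth in the LF-labelled libraries. With all annotated exons as the length, 12061 bases in place of 4117 for Nfkb1, this gene stood last in HF and ninth in the LF-labelled libraries, so its place in this order is uncertain.

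The members varied more between HF libraries than between the LF-labelled libraries, which is not particular to them. The coefficient of variation was larger in HF in 10 of 10 members and in 86.6% of the 5284 tested genes whose mean reached 500 normalized counts. Its median over members was 19.5% in HF and 6.64% in the LF-labelled libraries, against 15.4% in HF and 6.07% in the LF-labelled libraries over those genes. HF2 was the highest HF library in all 5 inhibitors and in 0 of the subunits, against 25.6% of all genes tested. HF4 was the lowest HF library in 3 of the inhibitors, Nfkbia, Nfkbib and Nfkbid, and in the subunits Rel and Relb, against 19.5% of all genes.

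Over the 38 textbook targets tested, HF2 was the highest HF library in 15 (39.5%), with no test of that share. Il1b and Cxcl2, the gene of a neutrophil-attracting chemokine, were highest in HF3 and Lcn2 in HF4. The 4 genes given next were chosen after their values were seen and because HF2 was highest in them, so they show sizes and carry no support. Tnf, the gene of the cytokine that activates the pathway, had 792, 2667, 407 and 598 normalized counts in HF1 to HF4, against 131, 149 and 160 in LF6 to LF8. Tnfaip3, the gene of the feedback enzyme A20, had 1995, 4340.5, 2101 and 1772 in HF1 to HF4, against 1023, 1641 and 1267 in LF6 to LF8. Icam1, an adhesion molecule, had 440, 2229, 781 and 602 in HF1 to HF4, against 2393, 2534 and 2730 in LF6 to LF8. Ptgs2, the gene of an inducible prostaglandin synthase, had 9689, 13358, 8680 and 9116 in HF1 to HF4, against 66.7, 93.1 and 121 in LF6 to LF8. HF2 also had the most genes with a read and the lowest Ly6g level of the HF libraries, and their part in these values was not tested.

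Other genes of the pathway were described by 6 lists, of which 141 of 147 genes were tested. Of these, 72 were higher in HF (51.1%, against 26.2% of all genes), 36 were lower (25.5%, against 28.7%) and 33 missed the threshold. With equal library totals 53 were higher and 49 lower, while of all 14936 genes tested 2696 were higher and 6295 lower. With quantile normalization 69 were higher and 35 lower, while of all genes 3976 were higher and 4003 lower. The size of the excess of higher calls thus depends on the scaling. The pathway median exceeded that of all genes by 0.75 with the authors' scaling, 0.74 with equal totals and 0.49 with quantile normalization. The IKK complex and its activating kinases made up a list of 12 tested genes, with a median of -0.41. Of these, 3 were higher (25%, against 26.2% of all genes), 5 were lower (41.7%, against 28.7%) and 4 missed the threshold. Ikbkb, the kinase that marks IkB alpha for destruction, was lower, at 2529, 2532, 3093 and 2849 in HF1 to HF4, against 8848, 8669 and 8618 in LF6 to LF8 (log2 difference -1.67 ± 0.09, SE, limma adjusted p = 2.1e-06). Map3k14, the kinase NIK that starts the noncanonical pathway, was lower too, with a mean of 863 in HF and 1788 in the LF-labelled libraries (log2 difference -1.05 ± 0.11, SE, limma adjusted p = 0.000123). Map3k3, a kinase that can activate IKK, had the highest mean of the list and was higher, at 9467 in HF and 3514 in the LF-labelled libraries (log2 difference 1.43 ± 0.10, SE, limma adjusted p = 8.7e-06).

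The other parts of the IKK complex, Chuk and Ikbkg, differed in direction. They and the related kinase Ikbke were named after their values were seen. Chuk, the kinase of the noncanonical pathway, averaged 1367 in HF and 2441 in the LF-labelled libraries (limma adjusted p = 0.0185) and was not past the threshold without LF6 or without LF8. Ikbkg, the scaffold NEMO, averaged 1546 in HF and 849 in the LF-labelled libraries (log2 difference 0.86 ± 0.10, SE, limma adjusted p = 0.000163). Ikbke, an IKK-related kinase of the interferon response, averaged 223 in HF and 1206 in the LF-labelled libraries (log2 difference -2.56 ± 0.44, SE, limma adjusted p = 0.00157).

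Of 36 receptors and adaptors, 19 were higher (52.8%), 12 were lower (33.3%) and 5 missed the threshold, with a median of 0.47. The shares over all genes were 26.2% higher and 28.7% lower. Il1r2, the decoy receptor for interleukin-1, averaged 17259 in HF and 65.3 in the LF-labelled libraries (log2 difference 8.08 ± 0.22, SE, limma adjusted p = 8.7e-08). Il1rap, the shared co-receptor, averaged 10256 in HF and 675 in the LF-labelled libraries (3.91 ± 0.13, SE, limma adjusted p = 2.4e-07), and Tirap, an adaptor of Toll-like receptors, averaged 2096 in HF and 485 in the LF-labelled libraries (2.11 ± 0.10, SE, limma adjusted p = 1.3e-06). Tnfrsf1b, a TNF receptor with the highest mean of the list, was lower, at 13042 in HF and 23355 in the LF-labelled libraries (log2 difference -0.86 ± 0.12, SE, limma adjusted p = 0.000583). Tlr4, the receptor for endotoxin, and Myd88, its adaptor, both named after their values were seen, were higher by 2.38 ± 0.13 and 1.71 ± 0.09 on the log2 scale (SE, limma adjusted p = 2.6e-06 and 1.9e-06).

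Of 21 ubiquitin regulators, 10 were higher (47.6%, against 26.2% of all genes), 6 were lower (28.6%, against 28.7%) and 5 missed the threshold. The median was 0.41. Tax1bp1, an adaptor of A20 with the highest mean of the list, averaged 10539 ± 401 in the HF libraries (SD, n = 4), against 3931 ± 80.2 in the LF-labelled libraries (SD, n = 3, log2 difference 1.42, limma adjusted p = 5.4e-07). Birc3, a ubiquitin ligase of TNF receptor complexes, averaged 6709 in HF and 3230.0 in the LF-labelled libraries (limma adjusted p = 3.6e-05), and N4bp1, an inhibitor of the pathway, averaged 3361 in HF and 1515 in the LF-labelled libraries (limma adjusted p = 0.000263). With equal library totals the medians of the receptor and ubiquitin lists turned to -0.05 (14 higher, 15 lower) and -0.11 (5 higher, 9 lower), while the median of all genes was then -0.67.

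Of 13 nuclear partners, 8 were higher (61.5%, against 26.2% of all genes), 1 was lower (7.7%, against 28.7%) and 4 missed the threshold. The median was 0.56. With equal library totals 3 were higher and 2 lower, with a median of 0.04. Bcl3, the gene of a further nuclear IkB protein, stood at 2631, 2942, 3512 and 3551 in HF1 to HF4, against 1595, 1324 and 1453 in LF6 to LF8 (log2 difference 1.11 ± 0.13, SE, limma adjusted p = 0.000202). Its direction was thus that of Nfkbid and Nfkbiz. Pdlim2, which terminates RelA activity in the nucleus, averaged 2088 in HF and 387 in the LF-labelled libraries (log2 difference 2.43 ± 0.13, SE, limma adjusted p = 2.5e-06). Ep300, a coactivator, differed by 0.65 ± 0.08 (SE, limma adjusted p = 0.000205), but by 0.128 with equal library totals (adjusted p = 0.239).

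Of 38 tested targets taken from textbook knowledge, 18 were higher (47.4%), 8 were lower (21.1%) and 12 missed the threshold, with a median of 1.48. The shares over all genes were 26.2% higher and 28.7% lower. Il1b, the gene of interleukin-1 beta, averaged 92246 ± 6329.8 in the HF libraries (SD, n = 4), against 2501 ± 371 in the LF-labelled libraries (SD, n = 3, log2 difference 5.21, limma adjusted p = 3.4e-08). Lcn2, the neutrophil granule protein lipocalin, averaged 21834 in HF and 20.3 in the LF-labelled libraries (log2 difference 9.93, limma adjusted p = 9.2e-08), and Tnfaip2, a TNF-induced gene, averaged 25932 in HF and 4371 in the LF-labelled libraries (2.57, limma adjusted p = 1.3e-07). Several of these targets also mark cell types, and the neutrophil marker sums of the same libraries were at least 391258 in HF and at most 8680 in the LF-labelled libraries. Their part in these counts was not tested.

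Immediate early genes, which respond within minutes to stimuli and to cell handling, were examined because Nfkbia and Nfkbiz respond as quickly. The list also holds the heat shock genes Hspa1a and Hspa1b. Of 21 tested, 14 were higher in HF (66.7%), 4 were lower (19.0%) and 3 missed the threshold, with a median of 1.54. The shares over all genes were 26.2% higher and 28.7% lower. The 4 lower genes, named after their values were seen, were Jun, Nr4a1, Hspa1a and Hspa1b. Jun averaged 5208 in HF and 8152 in the LF-labelled libraries, and Nr4a1 averaged 4245 in HF and 8122 in the LF-labelled libraries. Dusp1, a phosphatase with the highest mean of the list, averaged 86561 in HF and 22734 in the LF-labelled libraries (log2 difference 1.93 ± 0.06, SE, limma adjusted p = 2.1e-07), Junb differed by 2.30 ± 0.09 and Btg2 by 1.99 ± 0.08 (SE, limma adjusted p = 4.8e-07 and 6.5e-07). The heat shock gene Hspa1a, named after its values were seen, was lower, at 778 in HF and 9183 in the LF-labelled libraries (log2 difference -3.58 ± 0.19, SE, limma adjusted p = 2.5e-06). It shares most of its sequence with Hspa1b, so the split of reads between them is uncertain. The differences of Nfkbia, 1.73, and Nfkbiz, 1.80, thus lay beside a median of 1.54 for these genes, whose part in them was not tested.

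**Figure D5:**
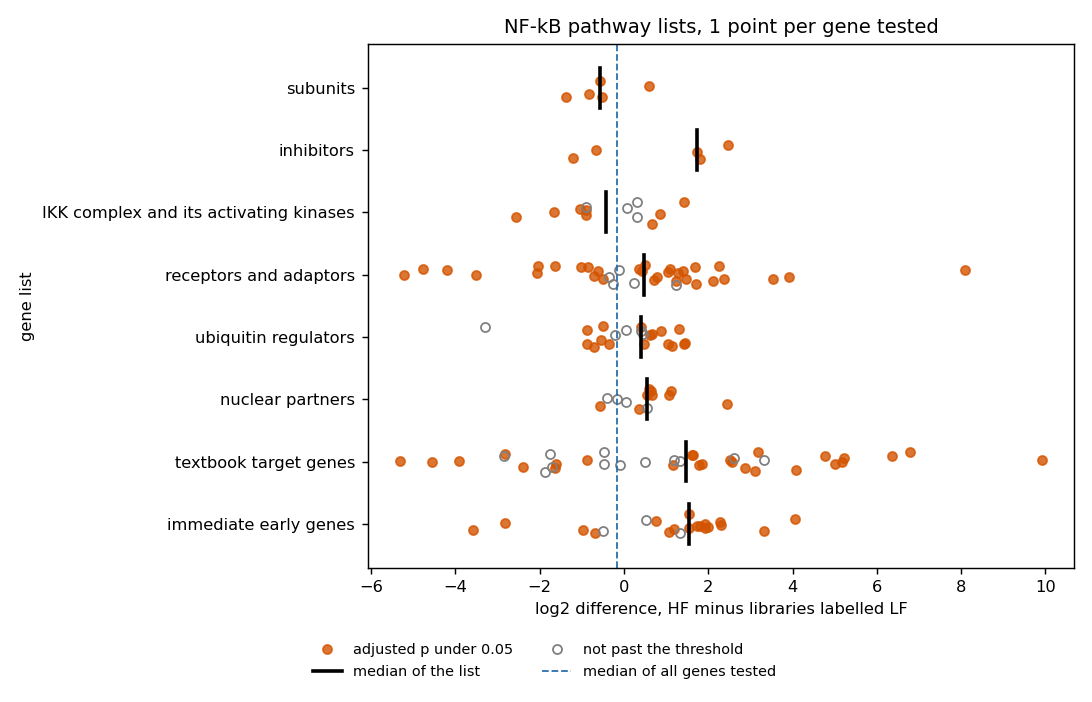
Log2 difference, HF minus LF-labelled libraries, of every tested gene of the member and pathway lists, filled where adjusted p is under 0.05 (limma), with a black bar at the median of each list and a dashed line at -0.16, the median of all genes tested. Subunits have a median of -0.56 and inhibitors one of 1.73, while immediate early genes lie mostly above the dashed line.

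The authors' deposited table gives the same direction for each of the 10 members. In the authors' deposited table the log2 fold change (HF over LF) is 1.74 ± 0.15 for Nfkbia, 2.53 ± 0.24 for Nfkbid and 1.82 ± 0.15 for Nfkbiz (SE). For Rela the authors' deposited table gives 0.59 ± 0.11 (SE, adjusted p = 3.4e-07), and for Relb, the weakest of the 10 there as well, -0.50 ± 0.205 (SE, adjusted p = 0.035).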

How the data were processed

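Per the submitters' processing notes, STAR 2.6.1b, featureCounts 1.6.3 and DESeq2 1.20.0 were used, with no roles stated. Genome build, annotation and strand setting: not given in the sources used here. Per the file headers, the table holds a signal column of normalized counts for each library. Within 0.01, 100% of values were whole multiples of 1 read, which gave back the reads. The authors' log2 fold changes, a score (the test statistic), p-values and adjusted p-values stand in the same deposited table. LF columns are numbered 6, 7 and 8 but LF labels 1 to 3, so these columns were used as LF libraries without a replicate number. The design gives 4 HF and 3 LF mice but ties no library to an animal, so the p-values reflect variation between libraries only.

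The limma 3.58.1 test (R 4.3.3, mean trend) compared HF with LF on log2(normalized count + 1) for all genes whose mean reached 10, adjusted by Benjamini-Hochberg over all of them at 0.05. The pseudocount of 1 understates changes of low genes. Members and gene lists were chosen with earlier results of these data known. All members are named, and so are, for each other list, up to 3 genes by lowest p and 1 by highest mean. Pseudocounts of 0.5 and 5, an absent filter or one at 50, other scalings and limma settings, and single libraries left out were tried as alternatives. So were edgeR 4.0.16 and DESeq2 1.42.0 on the reads: edgeR with the authors' size factors called 7640 genes, edgeR with TMM 7651 and DESeq2 8472, against 8211 with limma. The tests were tried on simulated data with far fewer changed genes than were called here and the same dispersion in both groups. That trial therefore does not show how the tests perform on these libraries. A search of the proteins for the IkB destruction motif was not run.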

Additional observations from a re-analysis of the deposited data

Results flagged for a closer look

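One value among the members was flagged. In HF, Nfkb2 stood at 936 normalized counts in HF1 and at 1452 to 1552 in the other 3 libraries, and the gap below the others took up 0.837 of the range of the group, above Dixon's critical value for 4 samples. Chance flags about 1 in 20 groups, and 10 members were examined. Without HF1 the log2 difference of Nfkb2 was -0.66.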

How the results depend on the processing

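No member changed direction under any of the 19 alternatives run for each. Nfkb1, Nfkb2, Nfkbia, Nfkbid and Nfkbiz also kept their call under each of them. The 4 higher members fell to 3 with equal library totals and with quantile normalization, where Rela was lost, and the 6 lower members fell to 4 with no filter, with no trend and with quantile normalization; edgeR with the size factors of the authors gave 5. With libraries left out in turn, 4 members were higher each time, and 3 to 6 were lower. Over the other pathway genes the counts with libraries left out were 63 to 73 higher and 26 to 37 lower, and with equal totals 53 were higher and 49 lower. Over all genes they were 3347 to 4041 higher and 3086 to 4423 lower. The difference between HF and the LF-labelled libraries in the log2 ratio of summed inhibitors to summed subunits was 1.997, with 1.90 to 2.06 when a library was left out and 1.15 for Nfkbia over Rela alone. No paired analysis was possible because the LF columns carry numbers that no HF column shares. Members had at least 279 reads in each library, so depth limits them little, while 3 and 4 libraries limit the precision.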

Other observations

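Among the HF libraries, HF4 was the lowest in 3 of the 5 inhibitors, against 19.5% of all genes tested. It was also the lowest in 14 of the 21 genes tested of the immediate early list (66.7%), which includes the heat shock genes Hspa1a and Hspa1b. The highest library differed: HF2 in all 5 inhibitors, and HF3 in 12 genes of the immediate early list (57.1%), against 25.6% and 23.8% of all genes tested. These shares describe 4 libraries, with no test.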
